A study of Mus musculus with 3 samples.

Results

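The genes described here are 10 genes for proteins of the cartilage matrix or proteins secreted by chondrocytes, Acan, Comp, Matn1, Matn3, Matn4, Hapln1, Cnmd, Prg4, Cilp and Cytl1, of 55422 genes counted. They were chosen by symbol, and all 10 were found. Their transcripts were counted in single cells of mouse long bone, in 3 droplet libraries (10x Genomics 3′ chemistry) of unique molecular identifiers (UMIs), each of which stands for 1 captured transcript. All mice were 3 weeks old, C57BL/6 and untreated. The 2 metaphyseal libraries, replicates 1 and 2, hold metaphyseal cells of wild-type bone after haematopoietic cells were depleted, and the sources used here do not state whether they came from separate animals. The third library, called Pdgfra-GFP here, holds cells from the metaphysis and epiphysis of femur and tibia of heterozygous Pdgfra-H2B-GFP mice. In these mice a nuclear green fluorescent protein is driven by the Pdgfra locus, and the cells were sorted for that fluorescence. This sort and the dissection decide which cells a library can hold.

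Cartilage matrix is a network of collagen fibrils filled with aggrecan, which binds hyaluronan and holds water. Link protein fixes aggrecan to hyaluronan, and matrilins and cartilage oligomeric matrix protein bridge collagen and proteoglycans. In a growing long bone the same tissue forms the growth plate, where chondrocytes divide, enlarge (hypertrophy) and are replaced by bone, and the articular surface, where a superficial layer secretes the lubricant lubricin.

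Chondrocytes were taken as cells with at least 2 UMIs of at least 6 of 8 genes, none of them among the 10 (Col2a1, Col9a1, Col9a2, Col9a3, Col11a1, Col11a2, Sox9 and Snorc). Those with at least 10 Prg4 UMIs are called Prg4 chondrocytes. Those with at least 2 UMIs of at least 2 of Efemp1, Sfrp5 and Chil1 are called Efemp1 chondrocytes, and the rest growth-plate chondrocytes. Growth-plate chondrocytes numbered 33 and 31 in the metaphyseal libraries and 1203 in the Pdgfra-GFP library, of 2389, 2011 and 11319 cells. Prg4 chondrocytes numbered 0, 1 and 248 and Efemp1 chondrocytes 4, 2 and 208, so these types could be described in 1 library only. In the Pdgfra-GFP library 87 cells held 6 of the 8 gate genes and 76 held 5, just inside and just outside the gate, and 44 gated cells held 3 to 9 Prg4 UMIs against 254 with 10 or more. Levels are given in CPM, the UMIs of a gene scaled to the same total of UMIs in each sum of cells, with exact 95% Poisson intervals that cover counting error only.

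The libraries held 25243314, 22082735 and 91747759 UMIs, and growth-plate chondrocytes had a median of 12543, 21389 and 9107 UMIs per cell. The metaphyseal libraries shared no cell barcode with each other and shared 9 and 10 with the Pdgfra-GFP library. Erythroid cells, which should lack cartilage genes, held Col2a1 at 298 CPM in the Pdgfra-GFP library, where chondrocytes made up 14.7% of the cells, against 12.5 and 10.7 in the metaphyseal libraries, where they made up 1.55% and 1.69%. Erythroid cells are therefore given below as the background of each level. The growth-plate label is given to all chondrocytes left by the Prg4 and Efemp1 gates. Of its 9 check genes, Ihh, which signals from prehypertrophic cells, stood at 159, 153 and 152 CPM in the 3 libraries. Ucma, a marker of resting and early proliferating cells, stood at 1483, 1844 and 3620. The 9 genes summed to 19489, 17875 and 6641, of which Col10a1 was 16458, 14226 and 1696. In the Pdgfra-GFP library they summed to 3785 in Efemp1 and 1796 in Prg4 chondrocytes. There, 55 of 1203 growth-plate cells held 1445 Ihh UMIs, so Ihh does not mark most cells of this label. Pdgfra itself stood at 7.2 CPM in growth-plate chondrocytes of the Pdgfra-GFP library, and the H2B-GFP transcript at 13.2 against 6.0 in erythroid cells.

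Growth-plate chondrocytes held 9 of the 10 genes above stroma. Lepr Cxcl12 stroma, the reticular cells of the marrow marked by the leptin receptor and Cxcl12 (736, 689 and 4018 cells), was the reference, and the test was edgeR's quasi-likelihood test on summed counts with library as a block and Benjamini-Hochberg adjustment over 14657 genes. Of all genes tested, 20.2% were called higher and 22.2% lower, and the 10 genes had a median log2 difference of 8.92 against −0.13 for all genes. Prg4 did not pass (log2 difference −0.41 ± 0.65 SE, adjusted p = 0.639), but the gate limits growth-plate chondrocytes to under 10 Prg4 UMIs per cell, so this value is partly fixed and is no result. The gate genes of the chondrocytes are matrix genes themselves, so these cells were selected for a related programme.

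Acan, the core protein of the large aggregating proteoglycan, stood at 4091, 4127 and 2966 CPM in growth-plate chondrocytes of metaphyseal replicate 1, replicate 2 and the Pdgfra-GFP library. In stroma it stood at 1.4, 0.7 and 16.4, and in erythroid cells at 0, 0 and 19.9, so that the stromal value of the Pdgfra-GFP library lay within the interval of its erythroid background (9.5 to 36.5). The log2 difference from stroma was 10.82 ± 0.81 (SE, adjusted p = 4.84e-10). Hapln1, the link protein that fixes aggrecan to hyaluronan, stood at 5776, 4892 and 2286, against 1.8, 1.4 and 12.6 in stroma. Acan and Hapln1 were both lower in the Pdgfra-GFP library than in either metaphyseal library, and a difference between the kinds of library could not be tested with 1 library on one side.

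Comp, a pentameric glycoprotein that binds collagens and matrilins, stood at 3198, 4456 and 4429, and its stromal level was 9.8, 13.1 and 63.7. The Pdgfra-GFP value of Comp lay between the metaphyseal ones. Cnmd, which encodes chondromodulin, an inhibitor of vessel growth in cartilage, stood at 2880, 2843 and 3629. Stroma held Cnmd at 0, 1.6 and 22.7.

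The matrilins, adaptor proteins of the pericellular matrix, differed from each other in how they varied between libraries. Matn3 stood at 2584, 2642 and 2794 in growth-plate chondrocytes, the narrowest range of the 10 genes in relative terms. Matn4 stood at 94.2, 109.8 and 115. Matn1 stood at 677 and 589 in the metaphyseal libraries and at 96.7 (91.0 to 103) in the Pdgfra-GFP library. In the metaphyseal libraries 28 of 33 and 29 of 31 growth-plate cells held a Matn1 UMI, whereas 124 of 1203 did in the Pdgfra-GFP library. This gap in Matn1 was also seen among cells with fewer than 10 Col10a1 UMIs, at 435, 529 and 27.1.

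Cytl1, a small secreted cytokine-like protein made by chondrocytes, and Cilp, a secreted protein of the middle and upper cartilage layers, were low and uneven in growth-plate chondrocytes. Cytl1 stood at 120, 33.4 and 413, but 57 of 61 UMIs of metaphyseal replicate 1 came from 1 cell and 14 of 21 of replicate 2 from another. Cilp had 0, 1 and 490 UMIs, so that its difference from stroma (2.76 ± 0.45 SE on the log2 scale, adjusted p = 6.95e-05) rested on the Pdgfra-GFP library, and DESeq2's Wald test did not call it (adjusted p = 0.183). Without the library block neither Cytl1 (adjusted p = 0.104) nor Cilp (adjusted p = 0.0628) passed. Prg4 had no UMI in the metaphyseal growth-plate cells, where 3 UMIs would be 5.9 and 4.8 CPM, and stood at 38.5 (34.9 to 42.3) in the Pdgfra-GFP library, where the gate keeps it under 10 UMIs per cell and erythroid cells held 13.9 (5.6 to 28.7).

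**Figure D1:**
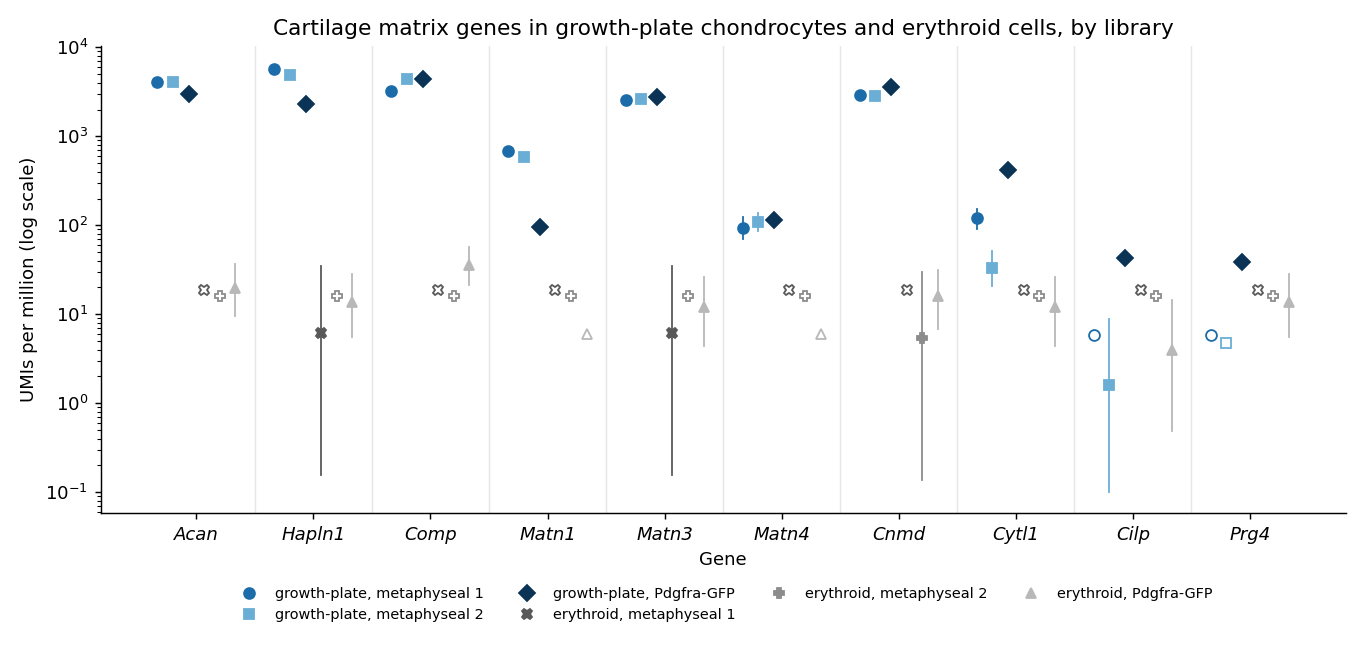
Levels of the 10 genes (CPM, log scale) in growth-plate chondrocytes and erythroid cells of each library, with exact 95% Poisson intervals; open symbols mark a count of 0, drawn at the level of 3 UMIs, and intervals are cut at 0.1. Acan, Hapln1, Comp, Matn3 and Cnmd lie over 2000 in all 3 libraries, Matn1 is higher in the metaphyseal libraries (677 and 589) than in the Pdgfra-GFP library (96.7), and Prg4 and Cilp have at most 1 UMI in the metaphyseal growth-plate cells.

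Of 38 other cartilage matrix genes, 37 were tested and 30 were higher and 4 lower in growth-plate chondrocytes than in stroma, with a median log2 difference of 4.99. The higher ones include 7 of the gate genes (Col2a1, Col9a1, Col9a2, Col9a3, Col11a1, Col11a2 and Snorc), whose calls, and with them part of the median, were fixed by the selection of the cells. The most abundant of these were Col2a1, the main fibrillar collagen of cartilage and a gate gene (38100, 52127 and 55026), Mgp, which inhibits calcification (27418, 24178 and 13043), Spp1, which encodes osteopontin (22136, 20191 and 7607), and Col10a1, the collagen of hypertrophic cells (16458, 14226 and 1696). The 4 that were lower were Tnc, Smoc1, Ogn and Vcan, the last 3 by log2 differences of −1.48, −3.77 and −2.28. Tnc, an adhesion-modulating glycoprotein, showed the largest difference of these 4 (−5.10 ± 0.69 SE on the log2 scale, adjusted p = 2.79e-06).

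Septoclasts, the perivascular cells that resorb cartilage at the border of the growth plate, served as a second background (15, 15 and 192 cells, taken by Sstr2, Cd55 and Otos). Acan had 1, 1 and 22 UMIs in them and Matn1 0, 0 and 1. Against stroma, 0 of the 10 genes were higher and 1 was lower in edgeR's quasi-likelihood test, where 5.41% and 7.76% of all genes were called. At an unadjusted p under 0.05 still 0 were higher and Cilp was lower as well, and DESeq2's Wald test called 0 higher too. The gene called was Matn4, which had 1, 0 and 1 UMIs in septoclasts against 52, 34 and 123 in stroma (log2 difference −3.06 ± 0.76 SE, adjusted p = 0.00911). Without the Pdgfra-GFP library the Matn4 difference did not pass (−1.65, adjusted p = 0.551). The other 9 genes did not pass (adjusted p from 0.142 to 0.986). In stroma Matn4 stood at 11.9, 7.9 and 7.3 CPM, and erythroid cells had no Matn4 UMI in any library. Their sums held only 160583, 186468 and 503444 UMIs, so this does not place the stromal levels above background.

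Prg4 chondrocytes held Prg4, Cilp and Cytl1 at levels 2-fold or more above those of growth-plate chondrocytes, and Acan, Matn1, Matn3, Matn4, Hapln1 and Cnmd 2-fold or more below, 3 and 6 of the 10 genes. Over the 12010 genes that had 20 UMIs or more in both types together, the same was true of 7.50% and 11.1%. Acan passed 2-fold only with the 78 growth-plate cells that held at least 10 Col10a1 UMIs counted in. With 1 library there was no test, and the intervals of the ratios below cover counting error only. The median log2 difference of the 10 genes was −1.22, against −0.03 for all genes. Prg4 itself was fixed by the gate, with 10526 against 38.5 CPM, and is no result.

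Col2a1, a gate gene and so fixed by the gate, stood at 40763 CPM. The type held Erg (83.6 against 9.3) and Creb5 (217 against 8.5), factors known from articular cartilage. Of 8 genes checked, 6 stood higher than in growth-plate chondrocytes, among them Clu (2650 against 551) and Vit (911 against 147), Htra1 stood at 277 against 459, and Tspan15 had 1 UMI. The 8 genes summed to 4432 CPM in Prg4, 4564 in Efemp1 and 1219 in growth-plate chondrocytes. In the Prg4 cells outside the chondrocyte gate, described below, they summed to 3501. The sum thus did not set Prg4 chondrocytes apart from Efemp1 chondrocytes. Markers of other cells also moved with the Prg4 type: 8 genes of fibroblasts summed to 6362 CPM in Prg4 chondrocytes (7 detected) against 1770 in growth-plate chondrocytes (8 detected), and 6 genes of tendon to 4704 against 2871 (6 detected in each). Their part in the levels below was not tested.

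Cytl1 stood at 21300.5 in Prg4 chondrocytes against 413 in growth-plate and 534 in Efemp1 chondrocytes, a ratio to growth plate of 51.5 (49.97 to 53.1). It was found in 221 of 248 Prg4 chondrocytes, and the 10 cells with the most Cytl1 held 23.6% of its UMIs. Cilp stood at 2060 against 43.3, a ratio of 47.5 (43.2 to 52.4), in 162 of 248 cells. In erythroid cells Cytl1 and Cilp stood at 11.9 and 4.0. So Cytl1 and Cilp were both far above background in Prg4 chondrocytes. Their levels in growth-plate chondrocytes were also above it, but 10 of 1203 cells held 274 of the 490 Cilp UMIs there. By the share of cells, given below, Cilp in growth-plate chondrocytes could not be told from background.

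The matrilins were lower. Matn1 had 2 UMIs in 248 Prg4 chondrocytes against 1093 in 1203 growth-plate chondrocytes, which is 1.2 against 96.7 CPM and a ratio of 0.013 (0.0015 to 0.045). Of the 1093 UMIs, 817 lay in the 78 cells with at least 10 Col10a1 UMIs and 276 in the other 1125. Against those 1125 cells Matn1 was still lower, but by less. Matn3 stood at 258 against 2794, 10.8-fold lower (9.8 to 11.9), and 47 of 248 cells held it. The Matn3 that remained was uneven, with 79.3% of 426 UMIs in 10 cells. Matn4 stood at 27.9 against 115, 4.14-fold lower (3.09 to 5.69).

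Acan stood at 1373 against 2966, 2.16-fold lower (2.07 to 2.26), and Hapln1 at 905 against 2286, a ratio of 0.396 (0.376 to 0.417). Both were still found in 240 of 248 Prg4 chondrocytes. Cnmd stood at 1384 against 3629, 2.62-fold lower (2.51 to 2.74). Comp differed least, at 3446 against 4429, a ratio of 0.778 (0.757 to 0.800). Prg4 left aside, the ratios to all growth-plate chondrocytes thus ranged from 0.013 for Matn1 to 47.5 for Cilp and 51.5 for Cytl1, whose intervals overlap.

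**Figure D2:**
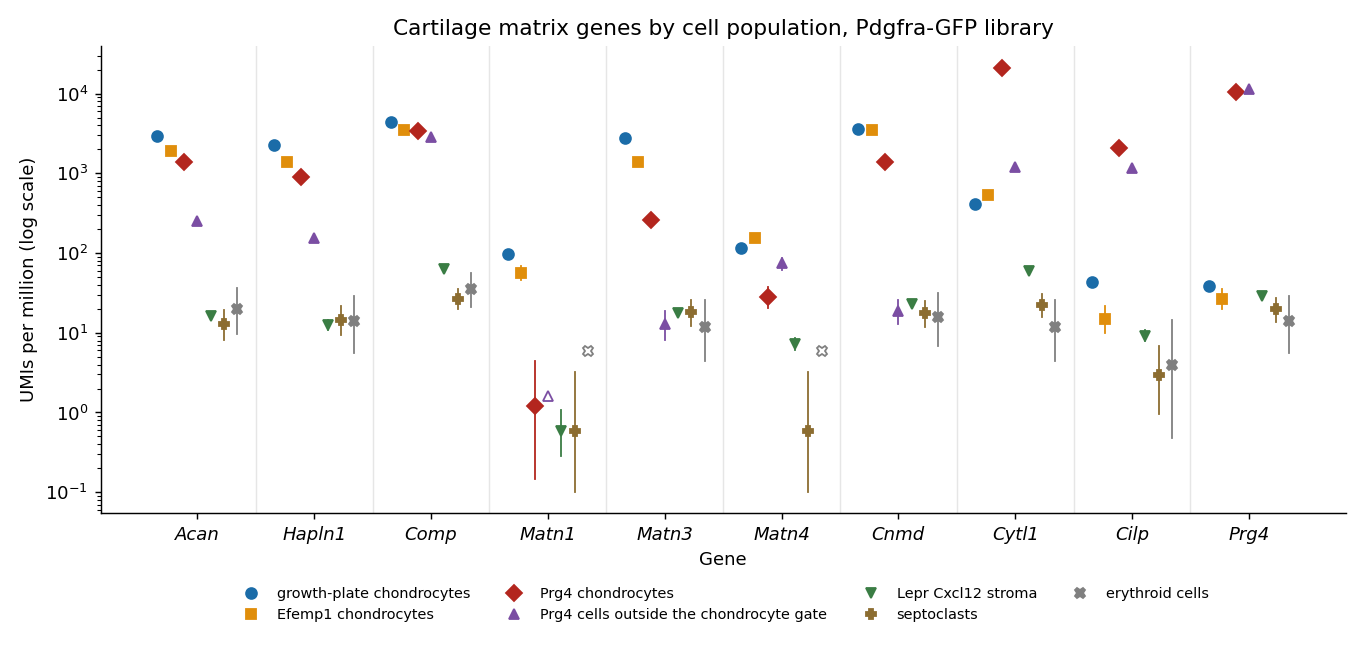
Levels of the 10 genes (CPM, log scale) by cell population in the Pdgfra-GFP library, with exact 95% Poisson intervals; open symbols mark a count of 0, drawn at the level of 3 UMIs, and intervals are cut at 0.1. Cytl1 and Cilp are highest in Prg4 chondrocytes (21300.5 and 2060), Comp lies between 2889 and 4429 in growth-plate, Efemp1 and Prg4 chondrocytes and in Prg4 cells outside the gate, and Matn1 has 2 UMIs in Prg4 chondrocytes.

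Clustering the chondrocytes of the Pdgfra-GFP library without the 10 genes gave 16 clusters, of which 2 consisted mostly of Prg4 chondrocytes (253 cells). Against the clusters of growth-plate cells these had 52.4 times the Cytl1 and 63.2 times the Cilp level, and 0.030 of the Matn3 level. The direction of each of the 10 genes was as by the gate. The 2 clusters were named by their share of gated Prg4 chondrocytes (89.7% and 95.5%). They thus hold mostly the same cells as the gate, and the shared direction is no separate check.

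The upstream sequences of 4 genes at the ends of this range are shown because Cilp and Cytl1 were higher and Matn1 and Matn3 lower in the same cells. They are the 250 bases before the RefSeq transcription start in build GRCm38.p6, 5′ to 3′ on the strand of the gene, which for all 4 is the plus strand: chr9:65264930-65265179, chr5:37735269-37735518, chr4:130944135-130944384 and chr12:8947679-8947928. Capitals mark TATATAA or TATTTAA, searched on the strand of the gene.
Cilp: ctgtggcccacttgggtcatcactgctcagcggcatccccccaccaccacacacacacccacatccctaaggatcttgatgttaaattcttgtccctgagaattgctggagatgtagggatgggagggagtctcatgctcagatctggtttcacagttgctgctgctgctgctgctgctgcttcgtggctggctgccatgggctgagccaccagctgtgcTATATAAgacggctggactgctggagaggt
Cytl1: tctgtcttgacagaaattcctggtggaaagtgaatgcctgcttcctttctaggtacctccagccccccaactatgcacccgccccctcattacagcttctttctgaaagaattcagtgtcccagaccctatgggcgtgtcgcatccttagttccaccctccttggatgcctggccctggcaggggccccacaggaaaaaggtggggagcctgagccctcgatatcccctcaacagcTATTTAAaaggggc
Matn1: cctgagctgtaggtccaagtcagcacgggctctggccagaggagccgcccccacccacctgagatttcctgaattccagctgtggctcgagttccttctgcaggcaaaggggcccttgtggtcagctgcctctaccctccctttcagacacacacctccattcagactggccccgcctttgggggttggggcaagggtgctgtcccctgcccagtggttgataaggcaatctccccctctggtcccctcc
Matn3: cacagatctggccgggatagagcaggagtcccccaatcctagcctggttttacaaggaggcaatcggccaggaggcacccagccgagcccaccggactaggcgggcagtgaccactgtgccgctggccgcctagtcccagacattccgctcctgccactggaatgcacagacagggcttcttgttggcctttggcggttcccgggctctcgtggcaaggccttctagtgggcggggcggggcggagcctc
TATATAA began 30 bases before the start of Cilp and TATTTAA 14 bases before that of Cytl1. These letters were chosen after the windows had been read, and 2.05% and 2.26% of 32851 such windows hold them. Windows were at hand for 8 of the 10 genes (9 windows, with 2 for Matn4). TATAAA, on the same strand, was in 0 of the 9 windows and in 7.59% of all. ACAAAG and ACAATG, the core letters bound by SOX proteins, searched on both strands, were in 0 of the 9 windows and in 25.2% of all windows for either.

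Cells with at least 10 Prg4 UMIs were also found outside the chondrocyte gate, 306 of them in the Pdgfra-GFP library. They held Col2a1 at 926 CPM and Col1a1 at 23512, with Thbs4 (2761), Tnmd (1494) and Htra4 (573), genes known from tendon and synovial lining, and are called by their gate only. Compared with Prg4 chondrocytes, 5 of 9 genes tested were at least 2-fold lower and 1 at least 2-fold higher, where 5.41% and 12.0% of all genes were. These cells were selected for failing the gate of cartilage matrix genes that Prg4 chondrocytes passed. Lower levels of cartilage matrix genes were therefore partly fixed by the selection, and the count is a description only. Prg4 stood at 11612, fixed by the gate, and Cilp at 1165, 1.77-fold lower (1.67 to 1.87). Cytl1 stood at 1215, 17.5-fold lower (16.8 to 18.3). Comp was again least different, at 2889, and Matn4 was 2.66-fold higher (1.89 to 3.80), at 74.1. Cnmd stood at 18.7 and Matn3 at 12.8, both within the erythroid intervals (6.9 to 31.3 and 4.4 to 25.9). Acan (256) and Hapln1 (153) stood above the erythroid values of 19.9 and 13.9. Col1a1, S100a8 (1430 against 30.9) and Ngp (586 against 10.9) moved with this population, and their part in these levels was not tested.

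Efemp1 chondrocytes held 0 of the 10 genes at least 2-fold higher and 1, Cilp, at least 2-fold lower than growth-plate chondrocytes, where 4.68% and 7.02% of 12023 genes were. Their markers were Efemp1 (495 against 15.5), Sfrp5 and Chil1, fixed by the gate, and they held Clu at 3708 against 551 and Ihh at 0.5 against 152. Cilp stood at 14.96 against 43.3, a ratio of 0.345 (0.227 to 0.505), but 10 cells held 55.9% of the 490 growth-plate Cilp UMIs, and by clustering the ratio was 0.803 (0.527 to 1.18), not 2-fold lower. Matn3 stood at 1407 against 2794, a ratio of 0.504 (0.484 to 0.524), just short of the 2-fold limit. Acan stood at 1917 (ratio 0.646, 0.624 to 0.669) and Hapln1 at 1395 (0.610, 0.586 to 0.635).

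Cnmd stood at 3536 in Efemp1 and 3629 in growth-plate chondrocytes, with a ratio of 0.974 (0.949 to 0.99996). Comp stood at 3529, a ratio of 0.797 (0.776 to 0.817), close to its ratio in Prg4 chondrocytes. Matn1 stood at 56.1, a ratio of 0.580 (0.470 to 0.710), and 10 cells held 82.9% of its 105 UMIs. By clustering without the 10 genes the Matn1 ratio was 0.945 (0.751 to 1.18). Of 1093 growth-plate Matn1 UMIs, 817 lay in the 78 cells with at least 10 Col10a1 UMIs. The other growth-plate chondrocytes held Matn1 below 56.1 CPM, so against them its direction turned. Prg4 stood at 26.7, within the erythroid interval (5.6 to 28.7), and is read as background. The gate limits Prg4 in Efemp1 and in growth-plate chondrocytes alike, so its ratio is partly fixed and is no result. Higher values were found for Cytl1, at 534 (1.29, 1.21 to 1.38), and Matn4, at 156 (1.35, 1.19 to 1.54). For Cytl1, 10 cells held 85.4% of 999 UMIs. Clustering without the 10 genes gave 1 cluster mostly of Efemp1 chondrocytes (119 cells), in which the Matn4 ratio was 0.254 and that of Comp 1.04, so the direction of both turned. The Matn3 ratio there was 0.316 and the Cytl1 ratio 1.87. Of this cluster 69.7% were gated Efemp1 and 30.3% growth-plate chondrocytes. The other gated Efemp1 chondrocytes, of 208, lay elsewhere and made up as much as 28.8% of a cluster counted as growth plate. The gate and the cluster thus hold partly different cells, and the gated Efemp1 chondrocytes did not form 1 cluster.

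Growth-plate and Efemp1 chondrocytes of the Pdgfra-GFP library were also set in order by how many of the 3 Efemp1 gate genes they held, from 811 cells with none over 392 and 168 to 40 with all 3. Acan went from 3246 over 2356 and 1970 to 1717. Hapln1 went from 2548 over 1714 and 1416 to 1317. For both genes the first step, among cells called growth plate, was the largest. The 78 growth-plate chondrocytes with at least 10 Col10a1 UMIs held 6518 of 33536 growth-plate Acan UMIs and 6063 of 25841 Hapln1 UMIs. Their part in the first step was not tested. Matn3 stood at 2731, 2930, 1617 and 616, with its lowest level in the 40 cells with all 3 genes. Comp (4775, 3675, 3328 and 4284) and Matn1 (131, 22.5, 46.0 and 94.2) were lowest in between. Ihh stood at 215, 14.9, 0.7 and 0 CPM over the same steps, and Col10a1 at 2441, 70.6, 161 and 15.3. The cells with none of the Efemp1 gate genes thus include the hypertrophic ones.

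**Figure D3:**
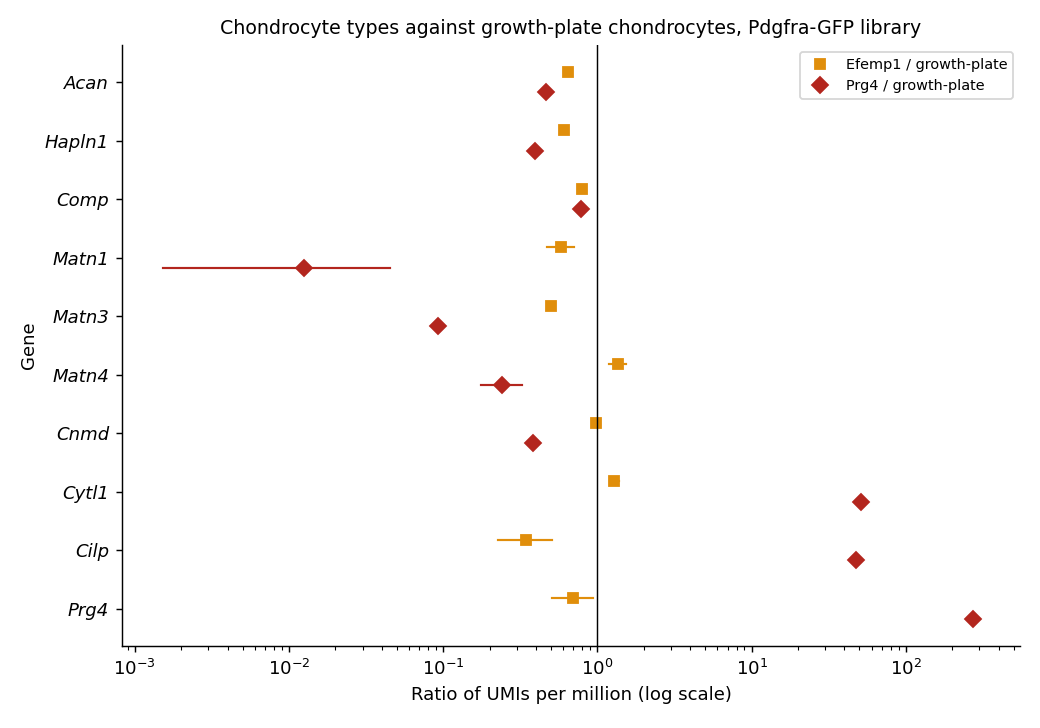
Ratio of CPM in Efemp1 and Prg4 chondrocytes to those in growth-plate chondrocytes of the Pdgfra-GFP library (log scale), with exact 95% intervals for counting error and a line at a ratio of 1. Cytl1 (51.5) and Cilp (47.5) lie far to the right in Prg4 chondrocytes and Matn1 (0.013) far to the left, whereas in Efemp1 chondrocytes the 10 genes lie between 0.345 and 1.35. Prg4 is fixed or limited by the gate in each type.

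Growth-plate chondrocytes with at least 10 Col10a1 UMIs, called Col10a1 chondrocytes here, made up 20 of 33, 11 of 31 and 78 of 1203 cells (60.6%, 35.5% and 6.48%). They could be compared with the other growth-plate chondrocytes in all 3 libraries. Of the 10 genes 0 were higher and 4 lower, where 4.34% and 5.23% of 13601 genes were called, and the median log2 difference was −0.83 against −0.21 for all genes. In the whole list of other cartilage matrix genes 2 of 36 tested were higher, Spp1 and Col10a1 itself, and 15 were lower. At an unadjusted p under 0.05 only Matn1 was higher, and DESeq2's Wald test called 0 of the 10 higher.

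Cnmd stood at 753, 429 and 2217 in Col10a1 chondrocytes against 4466, 3706 and 3787 in the others (log2 difference −2.66 ± 0.63 SE, adjusted p = 0.00889). Matn3 stood at 786, 242 and 1578 against 3925, 3501 and 2929 (−2.76 ± 0.55 SE, adjusted p = 0.00239). For Cnmd and Matn3 every value in Col10a1 chondrocytes lay below every value in the others. Matn4 stood at 32.2, 18.1 and 78.5 against 140.4, 143 and 119.5 (−1.36 ± 0.34 SE, adjusted p = 0.0139), again without overlap, on 7, 3 and 89 UMIs. Cilp was called on the Pdgfra-GFP library alone (7.9 against 47.3), since the metaphyseal libraries held 0 and 1 UMIs, and DESeq2's Wald test did not call it (adjusted p = 0.771).

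Few cells stood behind the metaphyseal values: 1 cell held 142 of 164 Cnmd UMIs of Col10a1 chondrocytes in replicate 1 and 50 of 71 in replicate 2, and 1 cell held 101 of 171 Matn3 UMIs in replicate 1. Without metaphyseal replicate 2, Matn3, Cnmd and Matn4 did not pass (log2 differences −1.96, −2.22 and −1.03, adjusted p = 0.0817, 0.130 and 0.192), and without replicate 1, Matn4 did not (−1.24, adjusted p = 0.0943). Without the Pdgfra-GFP library all 3 passed (−3.03, −2.86 and −2.56, adjusted p = 2.85e-05, 9.24e-05 and 0.00285). Without the library block 0 of the 4 passed (adjusted p from 0.0628 to 0.454). In metaphyseal replicate 1, Col10a1 chondrocytes also held Hbb-bs at 14898 and Col1a1 at 8678 CPM, against 133 for each in replicate 2, and the part of these in the levels was not tested.

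Matn1 went the other way. It stood at 1001, 755 and 720 in Col10a1 chondrocytes against 435, 529 and 27.1 in the other growth-plate chondrocytes, higher in all 3 libraries and without overlap. The size differed, with ratios of 2.30 (1.84 to 2.89), 1.43 (1.14 to 1.78) and 26.6 (23.1 to 30.5), and the test across libraries did not pass (log2 difference 1.73 ± 0.58 SE, adjusted p = 0.0624). Over the alternatives the adjusted p of Matn1 ranged from 2.41e-05, without a filter on low counts, to 0.488, by DESeq2's Wald test. It passed without the Pdgfra-GFP library (0.0313) and without metaphyseal replicate 2 (0.0196). In the Pdgfra-GFP library 817 of 1093 growth-plate Matn1 UMIs lay in the 78 Col10a1 chondrocytes.

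Acan and Comp differed in direction between the kinds of library. So did depth: the median UMIs per cell were 8247.5, 14815 and 14610.5 in Col10a1 chondrocytes and 20967, 22493.5 and 8866 in the others, and the part of depth in these ratios was not tested. Acan stood at 3165 and 3292 in metaphyseal Col10a1 chondrocytes against 4781 and 4425, and at 5747 against 2656 in the Pdgfra-GFP library. Comp stood at 2958 and 3895 against 3377 and 4657, and at 5473 against 4313. Hapln1 stood at 6114, 2869 and 5346 against 5524, 5615 and 1944, a ratio of 1.11, 0.511 and 2.75. The ratio of 1.11 rested largely on 1 cell, which held 591 of the 1331 Hapln1 UMIs of Col10a1 chondrocytes in replicate 1. In the test across libraries none of Acan (adjusted p = 0.696), Comp (0.812) and Hapln1 (0.838) passed. Cytl1 stood at 276, 36.2 and 173 against 3.4, 32.4 and 440, with 57 of the 60 UMIs of replicate 1 in 1 cell. Prg4 had 0, 0 and 19 UMIs in Col10a1 chondrocytes.

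**Figure D4:**
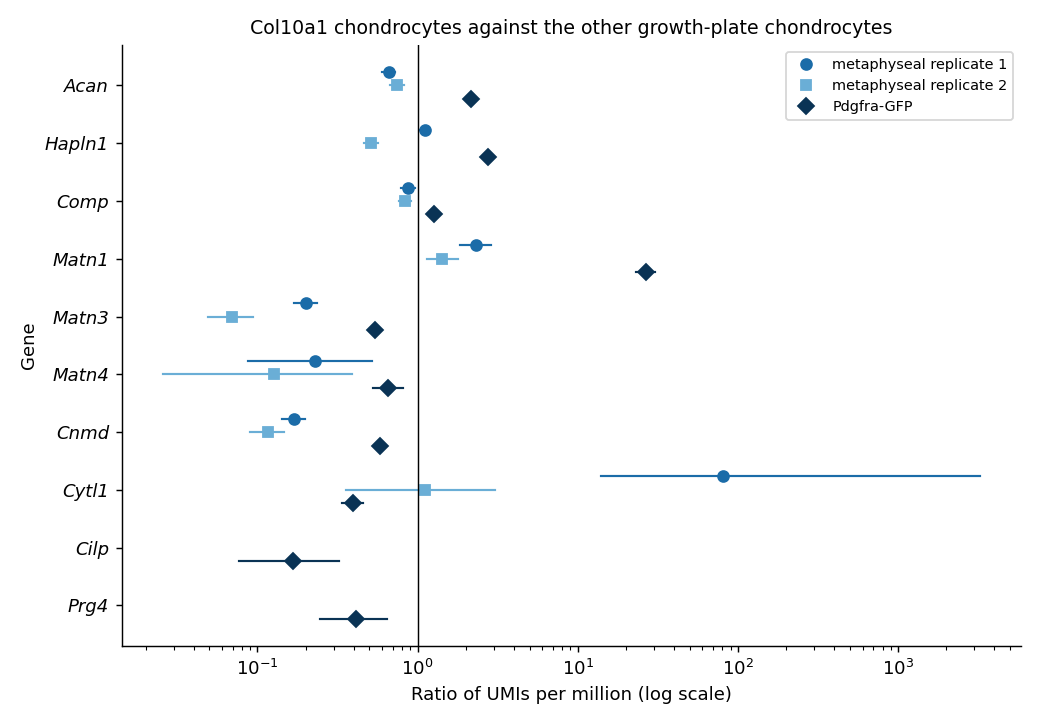
Ratio of CPM in Col10a1 chondrocytes to those in the other growth-plate chondrocytes of each library (log scale), with exact 95% intervals for counting error and a line at 1; a ratio with a count of 0 on either side is left out. Matn3, Matn4 and Cnmd lie left of 1 and Matn1 right of 1 in all 3 libraries, and Acan and Comp lie left of 1 in the metaphyseal libraries (Acan 0.662 and 0.744) and right of it in the Pdgfra-GFP library (2.16).

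Col10a1 chondrocytes were not alike in the libraries in their hypertrophic markers. Ihh stood at 358 and 338 CPM in the metaphyseal libraries and at 1279 in the Pdgfra-GFP library, and Spp1, which rises late in hypertrophy, at 51777, 71592 and 21287. Col10a1 itself stood at 38533, 53944 and 16749. Col10a1 chondrocytes were therefore split by at least 2 Ihh UMIs, a split chosen after these values had been seen, into 9, 7 and 55 cells with Ihh and 11, 4 and 23 without. Of the other hypertrophic check genes, Ibsp stood at 3120, 3412 and 13851 with Ihh and at 3769, 5848 and 14509 without. Ibsp, Mef2c and Panx3 were highest in the Pdgfra-GFP library in both groups, whereas Spp1 was lowest there. In growth-plate chondrocytes with at least 2 Ihh but fewer than 10 Col10a1 UMIs, Ibsp stood at 0, 10.96 and 8959. A list of 7 osteoblast genes summed to 24.9, 16.1 and 10772 CPM in erythroid cells. In growth-plate chondrocytes the same list summed to 1597, 1220 and 6632. The part of background in the Ibsp levels was not tested, so its gap between libraries is a description only. The numbers of cells are small and no test was made.

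Acan stood at 4222, 3679 and 6766 in Col10a1 chondrocytes with Ihh and at 2142, 2148 and 2698 in those without, lower without Ihh in all 3 libraries. In metaphyseal replicate 1 the Acan value with Ihh rested largely on 1 cell, which held 286 of 452 UMIs. Comp stood at 3821, 4665 and 6527 with Ihh and at 2124, 1623 and 2318 without. In metaphyseal replicate 2 the Comp value with Ihh rested on 1 cell, which held 450 of the 645 Comp UMIs of all Col10a1 chondrocytes. Among Col10a1 cells without Ihh the 3 libraries lay within 2142 to 2698 for Acan and 1623 to 2318 for Comp. Cnmd stood at 1504, 517 and 2543 with Ihh and at 27.1, 167 and 1240 without. With Ihh, 1 cell held 142 of 161 Cnmd UMIs in replicate 1 and 50 of 64 in replicate 2. For Matn3, 1 cell held 101 of 139 UMIs with Ihh in replicate 1. Matn3 stood at 1298, 234 and 1923 with Ihh and at 289, 263 and 546 without, so that metaphyseal replicate 2 was not lower without Ihh.

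Matn1 and Hapln1 did not share 1 order. Matn1 was higher without Ihh in the metaphyseal libraries (1256 and 1695 against 738 and 437) and lower in the Pdgfra-GFP library (155 against 909). Hapln1 stood at 9220, 2256 and 6737 with Ihh and at 3109, 4678 and 1180 without. In metaphyseal replicate 1, 1 cell held 591 of the 987 Hapln1 UMIs with Ihh. Median depth was 7418, 19493 and 15470 UMIs with Ihh and 8714, 10143 and 11390 without. Spp1 stood at 23120, 57292 and 5581 with Ihh and at 79506, 113808 and 68323 without, and the part of depth and of such abundant transcripts in these levels was not tested.

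**Figure D5:**
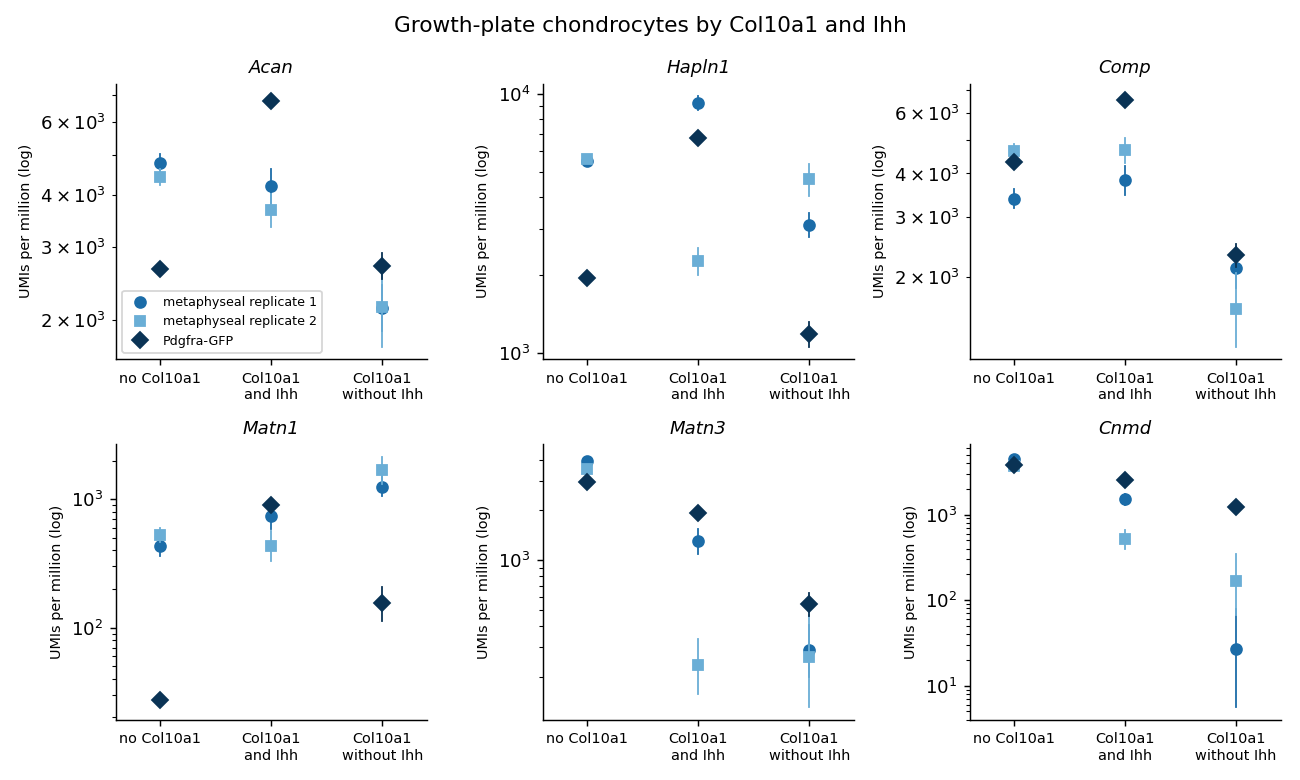
Levels of 6 genes (CPM, log scale) in growth-plate chondrocytes with fewer than 10 Col10a1 UMIs, with Col10a1 and Ihh, and with Col10a1 but without Ihh, by library, with exact 95% Poisson intervals. Acan is lower in the right than in the middle group in all 3 libraries (2142, 2148 and 2698 on the right), as is Comp. The middle value of Acan in metaphyseal replicate 1 rests largely on 1 cell with 286 of 452 UMIs. That of Comp in metaphyseal replicate 2 rests on 1 cell with 450 of the 645 UMIs of all Col10a1 chondrocytes. Matn1 is higher on the right in the metaphyseal libraries (1256 and 1695) and lower in the Pdgfra-GFP library (155).

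Cycling growth-plate chondrocytes, with at least 3 of Top2a, Mki67, Cdk1, Cenpf, Birc5 and Hmgb2, numbered 5, 6 and 100 and were compared in the Pdgfra-GFP library only. Past 2-fold, 0 of the 10 genes lay above and 3 below the other cells, where 9.24% and 8.61% of 11682 genes were. Matn3 stood at 3563 in cycling against 2699 in other cells (ratio 1.32, 1.28 to 1.36) and Cnmd at 4248 against 3554 (1.195, 1.16 to 1.23). Acan, at 2950 and 2968, and Hapln1, at 2298 and 2284, had ratios with intervals of 0.960 to 1.03 and 0.967 to 1.05. Matn1 (39.8 against 104), Cilp (5.7 against 47.9) and Prg4 (15.4 against 41.3) were the 3 lower ones. Of 1093 growth-plate Matn1 UMIs, 817 lay in the 78 Col10a1 chondrocytes, and Col10a1 itself was past 2-fold lower in cycling cells. Growth-plate chondrocytes with fewer than 10 Col10a1 UMIs held Matn1 below 39.8 CPM. For Cilp, 10 cells held 55.9% of 490 growth-plate UMIs. The gate keeps Prg4 under 10 UMIs per cell on both sides, so its value is partly fixed. Comp stood at 4098 against 4470 (0.917), Matn4 at 86.0 against 119 (0.723) and Cytl1 at 455 against 408 (1.12, 1.02 to 1.22).

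Shares of cells with a UMI were compared after each cell was thinned to 2000 UMIs. In the Pdgfra-GFP library 83.8% (78.6 to 88.2, exact binomial interval) of 247 Prg4 chondrocytes held Cytl1, against 22.4% (20.03 to 24.8) of 1203 growth-plate chondrocytes and 3.51% (0.428 to 12.1) of 57 erythroid cells. Without thinning the first 2 shares were 89.1% and 42.2%. Cilp was found in 57.5% of Prg4 and 4.57% of growth-plate chondrocytes, the latter within the erythroid interval (0.0444 to 9.39). Acan was found in 96.2% of growth-plate, 95.2% of Efemp1 and 86.6% of Prg4 chondrocytes. Matn3 was found in 85.5%, 66.3% and 9.31% of the same types. Matn1 was found in 4.66% and 4.81% of growth-plate and Efemp1 chondrocytes, within the erythroid interval of 0 to 6.27, and in 0 of 247 Prg4 chondrocytes, which allows a share of up to 1.48% at this depth (exact interval). Without thinning 2 of 248 held a Matn1 UMI. Matn1 in growth-plate chondrocytes could thus not be told from background by its share at this depth, whereas its level of 96.7 CPM stood against no erythroid UMI (3 UMIs would be 6.0 CPM). In the metaphyseal libraries Matn1 was found in 51.5% and 58.1% of growth-plate chondrocytes.

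Each gene was set beside the 6043 genes with a mean of at least 20 CPM over 21 sums of 10 cells or more (population by library), by the Pearson correlation of log2(CPM + 10). These sums share libraries and mostly differ between chondrocytes and other cells, so that r is high for many cartilage genes. Acan and Hapln1 were most like each other (r = 0.994). Matn3 and Cnmd ranked among the first 3 of each other (0.987), and Mia was first for Cnmd (0.991). Comp was most like Acan (0.976), followed by Fam180a and Chad. Prg4 and Cilp were most like each other (0.982), followed by C1qtnf2 and Dlk1, but the gate sets the profile of Prg4 over these sums, so this is a description only. Matn1 was most like Prkg2 (0.956) and Slc13a5 (0.9498), Matn4 like Thbs3 (0.973), and Cytl1 like Lbhd2 (0.895), the lowest first value of the 10.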

How the data were processed

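The authors trimmed reads with fastp 0.20, aligned them with STARsolo (STAR 2.7.3a) to mm10 with Gencode M23 annotation and a GFP sequence, and deposited UMI counts of every gene in every barcode, with neither filter nor normalization. Following the study's limits, a cell needed 1500 (metaphyseal) or 1000 (Pdgfra-GFP) genes, and mitochondrial UMIs could reach 15% and ribosomal ones 30%. Scrublet called 25, 18 and 176 doublets (0 to 26 among chondrocytes), which were kept. Cells within more than 1 gate were left out. For each population of 10 cells or more, counts were added up within each library. edgeR 4.0.16 (quasi-likelihood, TMM, filterByExpr, library block) tested sums over all genes and was tested on simulated data. The SE of a log2 difference is its absolute value over the square root of the test's F statistic. It was derived from the test and not estimated by the model. Sums of 1 library deviated together (r from 0.106 to 0.655). With 1 library there was no test. DESeq2 1.42.0, other gates, filters and left-out libraries were alternatives, and the comparisons of Prg4, Efemp1 and cycling chondrocytes could not be tested. Analyses used Python 3.11.15 and R 4.3.3. The genes to name were the 10, given as counts in each comparison and with values where they are described, and, of a list of 38 others, the 4 most abundant genes and those that went against the list. The genes and lists were chosen with earlier results of these data known. Each model held the gated populations of 10 cells or more, so those outside a compared pair also set the spread. Populations with a sum in 1 library only added nothing to it. With library as a block, p-values measure how far differences between populations varied from library to library. This spread was pooled over the populations and may be technical. The depth was 25243314, 22082735 and 91747759 UMIs per library. Hapln1, Matn4 and Prg4 overlap a gene on the opposite strand (Gm8546, Rbpjl and Tpr).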

Additional observations from a re-analysis of the deposited data

Results flagged for a closer look

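For Acan and Comp the ratio of Col10a1 to other growth-plate chondrocytes lay below 1 in both metaphyseal libraries and above 1 in the Pdgfra-GFP library, each with an interval for counting error that leaves out 1. The ratio of Acan was 0.662 (0.603 to 0.726) and 0.744 (0.675 to 0.818) in metaphyseal replicates 1 and 2 and 2.16 (2.11 to 2.22) in the Pdgfra-GFP library. That of Comp was 0.876 (0.792 to 0.969), 0.837 (0.765 to 0.914) and 1.27 (1.24 to 1.30). The difference between the kinds of library was not tested, since the Pdgfra-GFP kind has 1 library.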

How the results depend on the processing

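The number of genes called between Col10a1 and other growth-plate chondrocytes, 1301, was 507 without the library block and 553 to 1159 with a library left out. Between septoclasts and stroma it was 1134 in place of 1931 without the block and 988 to 1278 with a library left out, and DESeq2's Wald test moved the split from 793 higher and 1138 lower to 918 and 733. The count for growth-plate chondrocytes against stroma stayed within 1.5 times. The number of the 10 genes at least 2-fold lower in Efemp1 chondrocytes, 1, was 2 with 7 gate genes, 2 without called doublets and 3 by clustering (Matn3, Matn4 and Prg4), where Cilp stood at 0.803. The Efemp1 ratio turned for Comp (1.04) and Matn4 (0.254) by clustering and for Cnmd (1.01) with 5 gate genes. In 285 of 303 tested values of single genes the call was as reported, and 13 lost and 5 gained a call. The 285 include values that were called in neither setting but turned in direction. Cilp between septoclasts and stroma, for example, had a log2 difference of −1.59, and of 2.28 by DESeq2's Wald test. Sums of at least 20 cells left only the comparison of growth-plate chondrocytes with stroma. Prg4 and Efemp1 chondrocytes come from 1 library, and counts near 0 limit Matn1, Matn4, Cilp and Prg4.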
